A study of Homo sapiens with 4 samples.

Results

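The human mitochondrial genome carries 37 genes, all listed on chromosome M in the GENCODE 19 annotation used for the counting: 13 mRNA genes, 2 rRNA genes and 22 tRNA genes. They were matched by Ensembl identifier, and all 37 were among the 57820 genes of the count files. Their read counts were described in both orientations in the 4 RNA-seq libraries of HAP1 cells, a near-haploid adherent line derived from the chronic myeloid leukaemia line KBM-7. The dKO group (2 libraries) lacked RING1A and RING1B, the catalytic subunits of Polycomb repressive complex 1, and the tKO group (2 libraries) lacked RING1A, RING1B and the nuclear deubiquitinase BAP1. Both groups were untreated and carried the RING1A and RING1B knockouts, and cells with intact RING1A and RING1B were not analysed here. RING1A and BAP1 were disrupted with a STOP cassette and resistant clones were picked, while the RING1B knockout was a purchased line, so that each genotype rests on selected clones. The comparison of tKO with dKO thus asks what the additional loss of BAP1 did to transcript levels in cells without Polycomb repressive complex 1.

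Mitochondrial DNA is circular and both of its strands are transcribed by a dedicated polymerase, POLRMT, into long RNAs that run through many genes. tRNAs lie between most of the longer genes, and their excision releases the rRNAs and mRNAs, most of which are then polyadenylated in the organelle. MT-ND6 is known as an exception that lacks a regular poly(A) tail and whose 3′ end is not set by a tRNA. The mRNAs encode core subunits of respiratory complexes I, III, IV and V, and all remaining subunits and all factors for copying, transcribing and translating this genome are made from nuclear genes. BAP1 and the Polycomb proteins act on nuclear chromatin.

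In the convention used here, genes are named by the strand that serves as template. The heavy strand gave 28 of the genes, namely 12 mRNAs, both rRNAs and 14 tRNAs, and the light strand gave 9, namely MT-ND6 and 8 tRNAs. Several mitochondrial reading frames end without a full stop codon, which is completed by the added poly(A) tail, and the poly(A) selection of these libraries depends on that same tail. The last 18 bases of the 13 coding regions are shown because at an incomplete stop they mark where the tail begins. They come from chromosome M of GRCh37, 5′ to 3′ on the coding strand, with the stop letters in capitals.
MT-ND1, chrM:4245-4262, plus strand: cattccccctcaaaccTA
MT-ND2, chrM:5494-5511, plus strand: ttatactaataatcttaT
MT-CO1, chrM:7428-7445, plus strand: gtatacataaaatctAGA
MT-CO2, chrM:8252-8269, plus strand: cccgtatttaccctaTAG
MT-ATP8, chrM:8555-8572, plus strand: ttgcccccacaatccTAG
MT-ATP6, chrM:9190-9207, plus strand: ctgcacgacaacacaTAA
MT-CO3, chrM:9973-9990, plus strand: tctattgatgagggtctT
MT-ND3, chrM:10387-10404, plus strand: gattagactgaaccgaaT
MT-ND4L, chrM:10749-10766, plus strand: aacctactccaatgcTAA
MT-ND4, chrM:12120-12137, plus strand: ttaccgggttttcctctT
MT-ND5, chrM:14131-14148, plus strand: ctactcctaatcacaTAA
MT-ND6, chrM:14149-14166, minus strand: attgctcgggggaatAGG
MT-CYB, chrM:15870-15887, plus strand: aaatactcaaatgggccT

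As annotated, 6 of these ended in an incomplete stop (MT-ND1, MT-ND2, MT-CO3, MT-ND3, MT-ND4 and MT-CYB) and 7 in a complete triplet. The last A of the MT-ATP6 triplet, at chrM:9207, is also the first base of MT-CO3. Whether the MT-ATP6 mRNA keeps that base, and so belongs with the 7, was not tested. MT-CO1 and MT-ND6 ended in AGA and AGG, which are arginine codons in nuclear genes. The genes are packed closely enough that some reading frames overlap. MT-ATP8 and MT-ATP6 share 46 bases, MT-ND4L and MT-ND4 share 7, and MT-ATP6 and MT-CO3 share 1. A read that touches both members of such a pair was left out by the counter as ambiguous, and this bears most on MT-ATP8, whose 207 bases include all of the first overlap. The longer overlaps are shown with the start codon of the downstream gene and the stop codon of the upstream gene in capitals. In that of MT-ND4L and MT-ND4 these letters run into each other.
MT-ATP8 and MT-ATP6, chrM:8527-8572, plus strand: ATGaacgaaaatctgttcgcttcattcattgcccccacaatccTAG
MT-ND4L and MT-ND4, chrM:10760-10766, plus strand: ATGCTAA

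The libraries held 16054590 to 18455410 counts in genes in the library orientation, so that 3 counts, taken as the detection floor, corresponded to 0.163 to 0.187 CPM (counts-per-million units, relative to all gene counts of the library). In the dKO pair BAP1 had 2046 and 2010 counts, and in the tKO pair 158 and 107. RING1 (RING1A) was at 12 to 17 counts in all 4, and RNF2 (RING1B) kept 1102 to 1561 counts. The blood cell genes SPI1 and GATA1 were at 0 in every library, PTPRC at 0 or 1, CD34 at 0 to 3 and CD33 at 0 to 5. Of the genes looked at as markers of adherent cells, VIM had 4322 to 9495 counts and KRT18 299 to 411, but KRT8 only 8 to 21. The tKO libraries also differed from each other along 2 chromosome arms. For 131 tested genes on the short arm of chromosome 10 the median log2 ratio to the dKO mean was -0.97 in tKO 1 and -0.03 in tKO 2, and for 358 tested genes of the distal short arm of chromosome 3 it was 0.01 in tKO 1 and -0.92 in tKO 2.

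Chromosome M took a few percent of each library. The 37 genes received 488623 and 482643 sense counts in dKO 1 and dKO 2, and 400251 and 409046 in tKO 1 and tKO 2. As a share of all gene counts this was 2.65% and 2.68% for the dKO pair and 2.44% and 2.55% for the tKO pair, with Wilson 95% intervals that extend less than 0.01 percentage points to either side and cover counting error only. Both tKO libraries lay below both dKO libraries. The means were 2.67% ± 0.0248 (SD, n = 2) and 2.49% ± 0.0772 (SD, n = 2), a difference of -0.172 percentage points (two-sided exact permutation p = 0.333, the smallest value that 2 against 2 libraries can give). In bulk RNA, fewer mitochondrial genomes or organelles per cell and less RNA from each cannot be told apart. The difference without any one library ranged from -0.227 to -0.117 percentage points.

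The share was split unevenly between the gene classes. The mRNAs took 2.33% and 2.47% of the dKO libraries and 2.29% and 2.24% of the tKO libraries, again without overlap (difference -0.132 percentage points, two-sided exact permutation p = 0.333). The rRNAs took 0.317% and 0.213% of the dKO libraries and 0.151% and 0.301% of the tKO libraries, so that each genotype had a high and a low library. Of the chromosome M sense counts alone the rRNAs made up 12.0% and 7.95% in dKO and 6.17% and 11.8% in tKO. The 22 tRNA genes together held 188 to 458 sense counts, or 0.00115% to 0.00248% of a library.

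**Figure D1:**
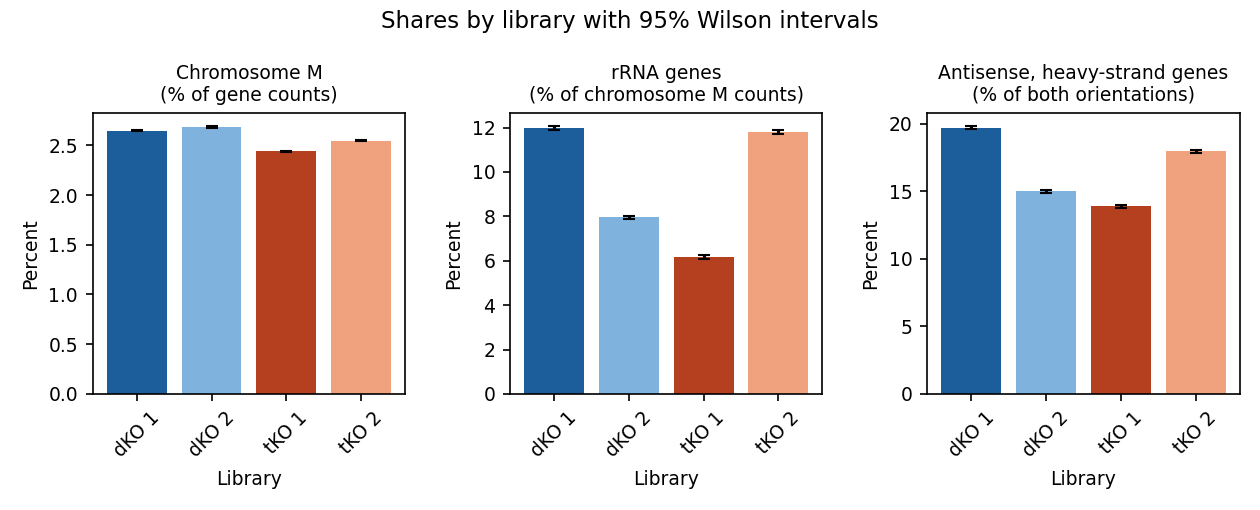
Bars give, for each library in percent with Wilson 95% intervals, the chromosome M share of all gene counts, the rRNA share of chromosome M sense counts, and the antisense share of reads at heavy-strand genes. The chromosome M share was 2.65% and 2.68% in dKO and 2.44% and 2.55% in tKO, while the rRNA share (12.0% and 7.95% in dKO, 6.17% and 11.8% in tKO) and the antisense share were high in dKO 1 and tKO 2.

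Levels were compared between genes as CPM per kilobase of gene length. Subunits of complex IV, which passes electrons to oxygen, led the order. MT-CO3 (chrM:9207-9990) stood at 4431 and 4997 in dKO 1 and dKO 2 and at 4266 and 4429 in tKO 1 and tKO 2. MT-CO2 (chrM:7586-8269) stood at 3918 and 4483 in the dKO libraries and 3458 and 3523 in the tKO libraries. For both genes the tKO values lay below both dKO values, for MT-CO3 by a narrow margin. MT-CO1 (chrM:5904-7445), the catalytic subunit, was lower and less regular, at 2060 and 2506 in the dKO libraries and 2500 and 1742 in the tKO libraries.

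For the subunits of ATP synthase (complex V) and the cytochrome b of complex III the genotypes overlapped. MT-ATP6 (chrM:8527-9207), part of the proton channel, stood at 2587 and 2869 in the dKO libraries and at 2596 and 2708 in the tKO libraries. MT-ATP8 (chrM:8366-8572), its small accessory subunit, stood at 1811 and 2254 against 2078 and 2168, with its lowest and its highest value in the dKO pair. MT-CYB (chrM:14747-15887) was the narrowest of all mRNAs, at 1640 and 1754 in dKO and 1766 and 1745 in tKO.

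The 7 mRNAs of complex I, the NADH dehydrogenase, spanned most of the range. MT-ND4 (chrM:10760-12137) stood at 2729 and 2965 in dKO and 2926 and 2606 in tKO, and MT-ND4L (chrM:10470-10766), which lies on the same transcript, stood at 2528 and 2645 against 2620 and 2434. MT-ND3 (chrM:10059-10404) stood at 1847 and 1667 in dKO and 1630 and 2241 in tKO. The values of these 3 genes overlapped between the genotypes, and MT-ND3 had its highest and its lowest value in the tKO pair. MT-ND2 (chrM:4470-5511) followed at 1407 and 1268 against 1305 and 1654, and MT-ND1 (chrM:3307-4262) at 1275 and 1045 against 971 and 1292. MT-ND6 (chrM:14149-14673), the single light-strand mRNA, stood at 1643 and 1203 in dKO and 1038 and 1302 in tKO. MT-ND5 (chrM:12337-14148) was the lowest of the mRNAs, at 689 and 558 in the dKO libraries and 488 and 477 in the tKO libraries, and here both tKO values were below both dKO values.

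MT-RNR1 (chrM:648-1601) and MT-RNR2 (chrM:1671-3229) encode the rRNAs of the small and large mitochondrial ribosomal subunits, which form the bulk of mitochondrial RNA in a cell, an amount that libraries made by poly(A) selection do not measure. In these libraries MT-RNR2 stood at 1589 and 1040 in dKO and 710 and 1536 in tKO, and MT-RNR1 at 724 and 536 against 418 and 645. They ranked 12th and 14th of the 15 rRNA and mRNA genes by the mean of the 4 libraries, after a removal of rRNA reads that may have included theirs. Each rRNA was higher in dKO 1 than in dKO 2 and higher in tKO 2 than in tKO 1.

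Ordered by that mean, MT-CO3 (4531) was followed by MT-CO2 (3845), MT-ND4 (2807), MT-ATP6 (2690), MT-ND4L (2557), MT-CO1 (2202), MT-ATP8 (2078), MT-ND3 (1846), MT-CYB (1726), MT-ND2 (1409), MT-ND6 (1296), MT-RNR2 (1218), MT-ND1 (1146), MT-RNR1 (581) and MT-ND5 (553). For 12 of the 14 neighbouring pairs the ranges over the 4 libraries overlapped, and the exceptions were the step from MT-CO2 to MT-ND4 and the step from MT-ND1 to MT-RNR1. In 5 pairs the order held in all 4 libraries. Only uniquely mapped reads were counted, so stretches that recur exactly in the nuclear genome can lose counts, except where a mate of the read pair lies outside the copy. How many counts were lost in this way was not measured. Of all windows of 100 bases, a length chosen here, an exact nuclear copy existed for 27.9% in MT-CO1, 26.1% in MT-ND2, 21.2% in MT-RNR1, 11.9% in MT-ATP6, 10.97% in MT-ND1, 4.67% in MT-CO3 and 2.39% in MT-CO2, and for none in the other 8 rRNA and mRNA genes.

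**Figure D2:**
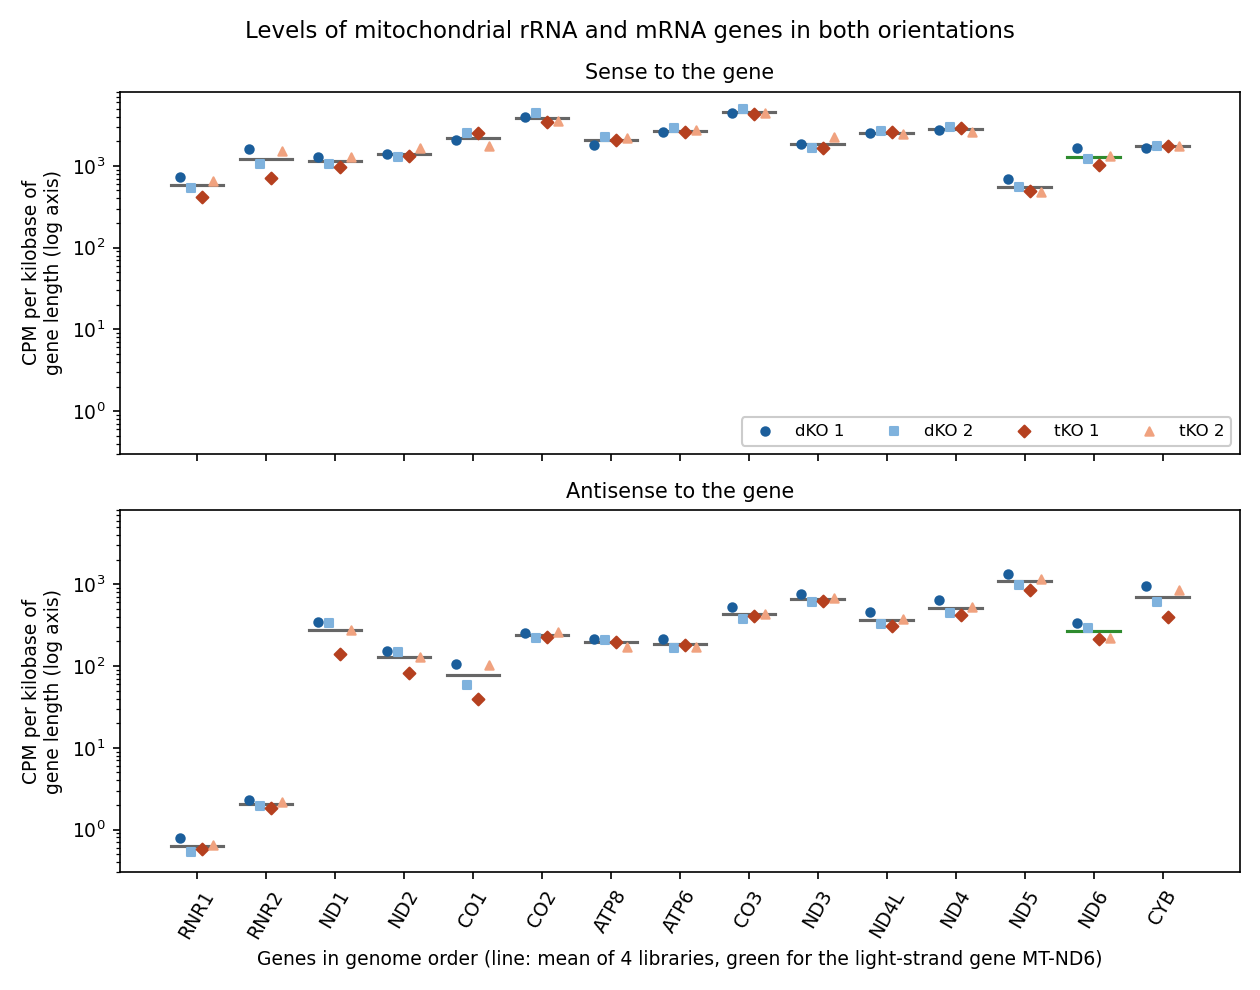
CPM per kilobase of gene length (log axis) for the 15 rRNA and mRNA genes in genome order, sense to the gene in the upper panel and antisense in the lower panel, with a point per library and a line at the mean of the 4 libraries. Sense levels lay between 418 and 4997, while the mean antisense level was 1091 at MT-ND5, 2.07 at MT-RNR2 and 0.637 at MT-RNR1.

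None of the mitochondrial genes passed the test for a difference between tKO and dKO. Of the 37 genes, 22 exceeded 0.5 CPM in at least 2 libraries and were tested: all 15 rRNA and mRNA genes and 7 tRNA genes. A gene was called differentially expressed (DE) when its limma adjusted p was below 0.05 and its log2 fold change exceeded 1 in size. By this rule 0 of 22 were DE, beside a background of 0.0132% of the 15136 genes tested, and edgeR's quasi-likelihood test and DESeq2 also called 0. At an unadjusted limma p below 0.05 there were 2, MT-CO2 and MT-ND5, beside a background of 3.55%, both of them lower in tKO, for which the background was 2.15%, and the count by edgeR and by DESeq2 was 2 each. The adjusted p was 0.996 for every mitochondrial gene in the limma fit. In simulated data of this size the same fit called 64% of genes changed 2-fold and 91.6% of those changed 4-fold. These shares leave out the threshold of 1 on the log2 fold change, as the median log2 estimate at 2-fold was 1.00. How many would pass both parts of the DE rule was not tested. The shares rest on 500 changed genes of each size over 5 runs, while in the measured data 2 of 15136 were called. BAP1, at a measured log2 fold change of -3.77, had a limma adjusted p of 0.0065. Measured standard errors were 0.0867 to 0.187 for the mitochondrial mRNAs and 0.222 and 0.355 for the rRNAs. Whether the shares of 64% and 91.6% hold for these genes was not tested.

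The largest mRNA difference was that of MT-ND5, which encodes a proton-pumping subunit of complex I. It had 23025 and 18186 counts in dKO against 14513 and 13883 in tKO, and its tKO mean was 77.4% of the dKO mean in CPM. The log2 fold change was -0.36 ± 0.12 (SE, 95% interval -0.65 to -0.07), with a limma p of 0.0234 before and 0.996 after adjustment. MT-CO2, which takes up electrons from cytochrome c, had 49454 and 55171 counts in dKO and 38822 and 38686 in tKO. Its tKO mean was 83.1% of the dKO mean, with a log2 fold change of -0.26 ± 0.10 (SE, 95% interval -0.49 to -0.03) and a limma p of 0.0333 before and 0.996 after adjustment. Both values depended on single libraries. For MT-ND5 the log2 fold change was -0.20 without dKO 1, -0.52 without dKO 2, -0.39 without tKO 1 and -0.33 without tKO 2. With unstranded counts it was -0.26 (unadjusted limma p of 0.145). For MT-CO2 it was -0.17 without dKO 2 (unadjusted limma p of 0.178) and -0.35 without dKO 1, and the unadjusted limma p was 0.0682 without tKO 1 and 0.0612 without tKO 2.

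The other mRNAs had intervals that included 0. MT-CO3, with 64118 and 70480 counts in dKO and 54890 and 55742 in tKO, gave a log2 fold change of -0.11 ± 0.10 (SE). MT-ND6 gave -0.27 ± 0.17 from 15915 and 11358 counts in dKO and 8945 and 10977 in tKO. MT-CYB gave 0.05 ± 0.09, with a 95% interval of -0.15 to 0.26. The remaining 8 ranged from -0.12 for MT-CO1 to 0.14 for MT-ND2, with MT-ND1, MT-ATP6, MT-ND4L and MT-ND4 at -0.04 to -0.03, MT-ATP8 at 0.08 and MT-ND3 at 0.13. MT-ND3 was 0.34 without tKO 1, 0.04 without dKO 2 and -0.09 without tKO 2, so that its direction rested on single libraries. Over the 13 mRNAs the tKO mean was lower for 9 and higher for 4, beside 7613 lower and 7523 higher of all tested genes. The tKO level of these mRNAs lay between 77.4% (MT-ND5) and 111% (MT-ND2) of the dKO level.

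The rRNAs were estimated with more error than most mRNAs. MT-RNR1 had 12740 and 9193 counts in dKO and 6544 and 9881 in tKO, for a log2 fold change of -0.26 ± 0.22 (SE). MT-RNR2 had 45706 and 29168 counts in dKO and 18160 and 38435 in tKO, for -0.30 ± 0.36. Neither difference was larger than the spread within a genotype. Without tKO 2 the values became -0.56 for MT-RNR1 and -0.84 for MT-RNR2, and MT-ND6 became -0.42, while none of these reached an absolute log2 fold change of 1. Without tKO 1 they were instead 0.04 for MT-RNR1, 0.25 for MT-RNR2 and -0.12 for MT-ND6, and without dKO 1 they were -0.03, 0.02 and -0.04. The direction of both rRNA differences thus rested on single libraries.

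The median log2 fold change of the 22 tested genes was -0.11 and that of the 13 mRNAs -0.04, beside 0.00 over all 15136 tested genes. Leaving out tKO 1 turned the median of the 22 to 0.01, and leaving out tKO 2 moved it to -0.26. For 3 of the 22 genes (MT-CO2, MT-CO3 and MT-ND5) every tKO library was lower than every dKO library after TMM scaling, beside a background of 15.9% in that direction. No tested mitochondrial gene was higher in both tKO libraries than in both dKO libraries, beside a background of 15.8%. Grouped by their annotated ends, the 6 mRNAs with an incomplete stop had a median of 0.01 and the 7 with a complete stop -0.12. The groups overlapped, with MT-CO3 at -0.11 in the first and MT-ATP8 at 0.08 in the second. MT-ATP6 (-0.04), whose last base is shared with MT-CO3, was counted among the 7, and the difference between the medians was not tested.

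**Figure D3:**
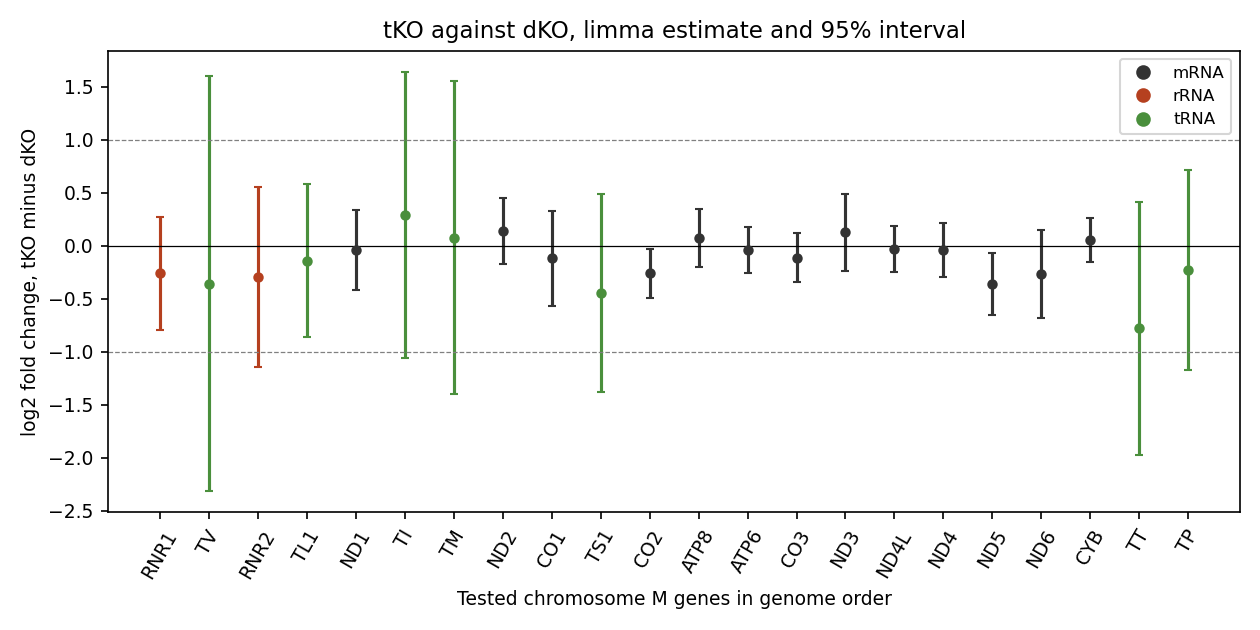
Log2 fold change of tKO against dKO for the 22 tested mitochondrial genes in genome order, with limma 95% intervals and dashed lines at the threshold of 1 in either direction. The intervals of MT-CO2 (-0.49 to -0.03) and MT-ND5 (-0.65 to -0.07) lie below 0, and the adjusted p was 0.996 for each gene.

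For the rRNAs and several mRNAs, libraries of the same genotype lay further apart than the genotype means. MT-RNR2 was 1.53 times as high in dKO 1 as in dKO 2 and 2.16 times as high in tKO 2 as in tKO 1, in CPM. MT-CO1 went the other way, at 0.82 and 0.70 times. Of the 22 tested genes, 13 were higher in dKO 1 and in tKO 2 than in the other library of their genotype, 4 were lower in both, and 5 were mixed. The higher ones were both rRNAs, MT-ND1, MT-ND2, MT-ND3, MT-ND6 and the 7 tested tRNA genes, and the lower ones were MT-CO1, MT-ND4L, MT-ND4 and MT-CYB. The deviations from the genotype means of same-numbered libraries had a correlation of -0.784 across the 22 genes, which share libraries and are not independent, and of 0.0581 across all 15136 tested genes.

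Transcripts without a poly(A) tail were looked at beside this pattern. The replication-dependent histone mRNAs end in a stem-loop instead of a tail, and 32 of their genes summed to 32.6 and 33.9 CPM in dKO 1 and dKO 2 and to 44.5 and 40.6 CPM in tKO 1 and tKO 2. Their order was not that of the mitochondrial rRNAs. The part of poly(A) selection or RNA quality in the spread of the rRNAs was not tested.

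**Figure D4:**
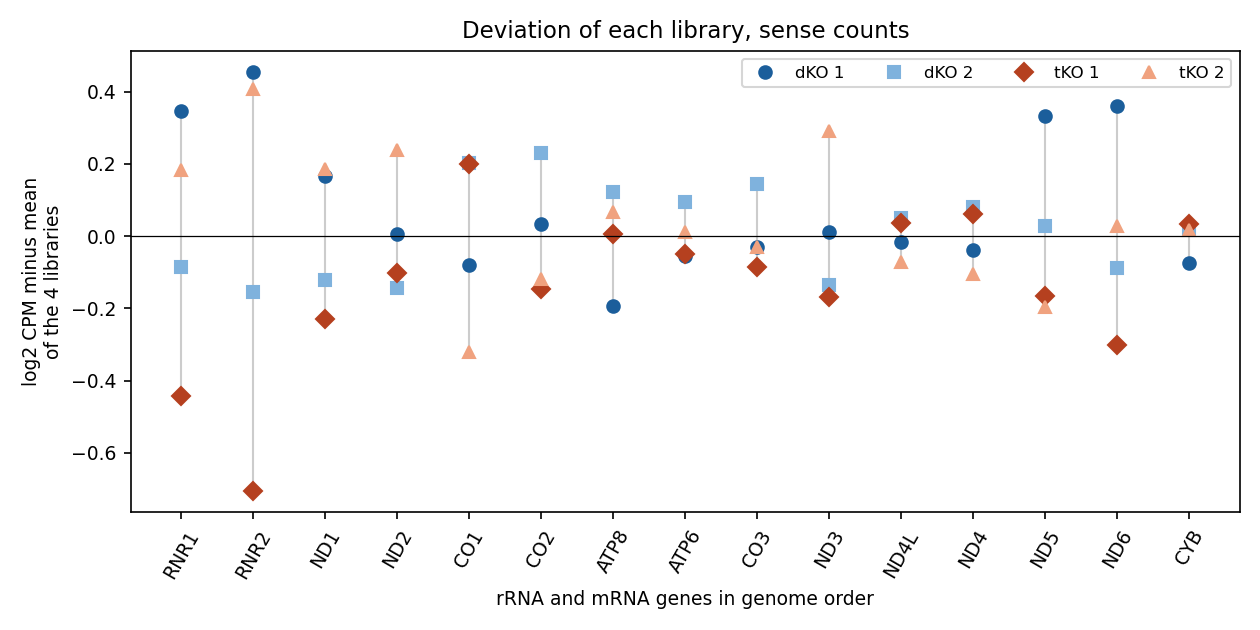
Deviation of each library from the mean of the 4 libraries in log2 CPM, for the 15 rRNA and mRNA genes in genome order with a point per library. dKO 1 and tKO 2 lie above the mean for both rRNAs and below it for MT-CO1, and tKO 1 is the lowest library for both rRNAs.

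Reads from the light-strand transcript were counted mostly as antisense reads at heavy-strand genes, since MT-ND6 and 8 tRNAs are the only genes annotated on it. At the 28 heavy-strand genes, antisense reads made up 19.7% and 15.01% of the reads in the dKO libraries and 13.9% and 17.97% in the tKO libraries. At nuclear genes the same share was 3.71% to 3.77% over summed counts, and the median over 3962 nuclear mRNA genes with at least 1000 counts was 0.171% to 0.200%. At the mitochondrial rRNA genes it was 0.134% to 0.226%, close to that nuclear median, from 9 to 14 antisense counts at MT-RNR1 and 47 to 67 at MT-RNR2. Of all antisense counts chromosome M held 14.7% and 11.4% in dKO and 9.54% and 12.7% in tKO.

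MT-ND5 was the only rRNA or mRNA gene with more antisense than sense counts. It had 45219 and 32311 antisense counts in dKO and 25251 and 34065 in tKO, or 66.3%, 64.0%, 63.5% and 71.0% of its reads. It lies next to MT-ND6 on the opposite strand, downstream of it along the light-strand transcript. Some reads crossed the boundary and counted both for MT-ND6 and as antisense to MT-ND5, or for MT-ND5 and as antisense to MT-ND6, but these were only 1415 to 2200 per library. MT-CYB, upstream of MT-ND6 on that transcript, had 19798 and 12455 antisense counts in dKO and 7462 and 15599 in tKO, or 36.4%, 25.7%, 18.4% and 32.8% of its reads. MT-ND4 had 16472 and 11143 in dKO and 9644 and 11598 in tKO, which was more than MT-CYB in tKO 1 and fewer in the other 3 libraries. MT-ND3 had antisense shares of 28.9% and 26.6% in dKO and 27.7% and 23.1% in tKO, above those of MT-CYB in dKO 2 and tKO 1.

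Along the light-strand transcript the levels went down and up from gene to gene before dropping at the rRNA genes. In CPM per kilobase, averaged over the 4 libraries, MT-CYB stood at 699, MT-ND6 itself at 1296 and MT-ND5 at 1091. Beyond it came MT-ND4 at 512, MT-ND4L at 367, MT-ND3 at 663 and MT-CO3 at 437, followed by MT-ATP6 at 184, MT-ATP8 at 196 and MT-CO2 at 240. The antisense level was 5.92% of the MT-ND6 level at MT-CO1, 9.81% at MT-ND2 and 21.3% at MT-ND1, against 0.160% and 0.0491% at MT-RNR2 and MT-RNR1. The exact nuclear copies in MT-CO1, MT-ND2 and MT-ND1 bear on the antisense counts in the same way, and their effect was not measured. Reads aligning to rRNA had been removed before counting. Whether mitochondrial rRNA was included was not given, and if so, reads of both orientations at MT-RNR1 and MT-RNR2 could have been lost.

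Summed over chromosome M, light-strand reads made up 21.7% and 16.6% of reads of either orientation in the dKO libraries and 15.5% and 19.7% in the tKO libraries. The difference of the means was -1.56 percentage points with overlapping groups (two-sided exact permutation p = 0.667), and it became 0.972 without dKO 1 and 0.539 without tKO 1, so that its direction rested on single libraries. In each genotype the library with the higher rRNA level also had the higher light-strand share.

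The tRNA genes had few sense counts. Mature tRNAs are short and carry no poly(A) tail, and libraries of this kind are not made to capture them. MT-TL1 (leucine) had 78 and 71 sense counts in dKO and 47 and 76 in tKO. MT-TI (isoleucine) had 57 and 27 against 25 and 74, and MT-TT (threonine) had 90 and 31 against 23 and 31. On the light strand MT-TP (proline) led with 90 and 41 against 42 and 50, then MT-TS1 (serine) with 44 and 24 against 18 and 24, and MT-TE (glutamate) with 7 and 1 against 5 and 4. The tested tRNA genes MT-TV, MT-TL1, MT-TI, MT-TM, MT-TS1, MT-TT and MT-TP had log2 fold changes from -0.78 (MT-TT) to 0.29 (MT-TI) with standard errors of 0.30 to 0.82. Their 95% intervals were wide, from -2.31 to 1.60 for MT-TV and from -0.86 to 0.58 for MT-TL1. MT-TI was at 1.05 without tKO 1, but at -0.46 without tKO 2 and -0.21 without dKO 2, so that its direction rested on single libraries.

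More reads came from the opposite strand of many tRNA genes. Of the 22 tRNA genes, 11 had more antisense than sense counts in every library, and over all 22 the antisense counts summed to 1769 and 1203 in dKO and 988 and 1163 in tKO. MT-TY (tyrosine, chrM:5826-5891), a light-strand gene beside MT-CO1, had 436 and 311 antisense counts in dKO and 242 and 242 in tKO, against 0 to 5 sense counts. MT-TS2 (serine, chrM:12207-12265), a heavy-strand gene between MT-ND4 and MT-ND5, had 332 and 211 antisense counts in dKO and 217 and 195 in tKO. Its neighbour MT-TH (histidine, chrM:12138-12206) had 195 and 147 in dKO and 147 and 179 in tKO. Both exceeded their sense counts, which were 0 to 3, in every library. MT-TW, MT-TA, MT-TN and MT-TK had 0 counts in both orientations in all 4 libraries. MT-TW had no exact nuclear copy of a 100-base window, but it lies between exact copies, within the stretch of chromosome M that a block on chromosome 1 matches. Whether its reads were countable was not tested, so no limit is given for it. For MT-TA, MT-TN and MT-TK an exact nuclear copy existed for 21.9%, 100% and 90.3% of the 100-base windows, so that reads there may not have been countable and no limit is given. Because a read touching a neighbour on the same strand is ambiguous, 9 of the 22 tRNA genes offered fewer than 100 bases free of neighbours, so that an alignment of that length could not be counted for them.

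Some reads were counted at nuclear copies of mitochondrial DNA. GRCh37 held 25 exact copies of at least 100 bases, the longest of 279 bases, and 21 of them lay in one block at chr1:564464-570304 that matches chrM:3914-9755. Of 394 annotated nuclear pseudogenes of mitochondrial genes, 62 had any count, and their sums of 12542 and 13484 in dKO and 10482 and 10605 in tKO equal 2.57% to 2.79% of the chromosome M counts. MTCO3P12 (chr1:569756-570302), 98.2% identical to MT-CO3 over the aligned bases, held most of them, with 9898 and 11365 counts in dKO and 8689 and 8751 in tKO. Per 100 counts of MT-CO3 this was 15.4 and 16.1 in dKO and 15.8 and 15.7 in tKO.

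For the next most counted copies the ratio to the mitochondrial gene also varied little between the libraries. MTND6P4 (chr5:134259813-134260334) had 11.2 and 9.93 counts per 100 of MT-ND6 in dKO and 9.82 and 10.7 in tKO. MTND4P12 had 0.863 and 0.918 per 100 of MT-ND4 in dKO and 0.914 and 0.803 in tKO, and MTCO1P12 stayed between 0.312 and 0.359 per 100 of MT-CO1. Reads of the mitochondrial gene and transcripts of such a copy cannot be told apart from gene counts. Of the pseudogenes 7 were tested and 0 were DE by limma, beside a background of 0.0132%, with 0 at an unadjusted limma p below 0.05, beside 3.55%. By edgeR and by DESeq2 0 were DE, and the median log2 fold change was -0.11. The smallest p-values belonged to MTND2P28 (log2 fold change 0.30) among those higher in tKO and to MTCO2P22 (-0.70) and MTATP6P1 (-0.70) among those lower, each on 4 to 23 counts per library.

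**Figure D5:**
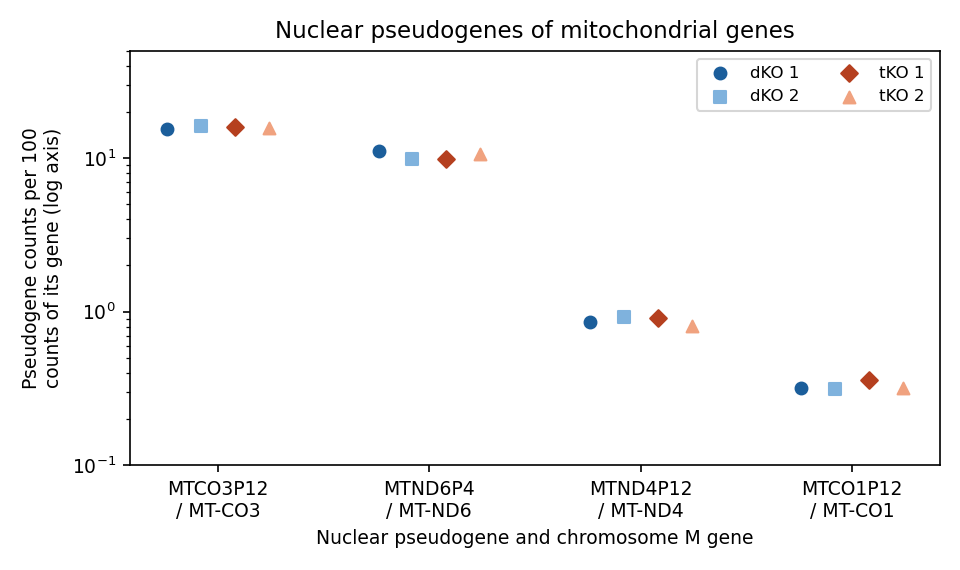
Counts of 4 nuclear pseudogenes per 100 counts of the mitochondrial gene they derive from (log axis), with a point per library. MTCO3P12 stays at 15.4 to 16.1 and MTND6P4 at 9.82 to 11.2 in the 4 libraries.

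The nuclear genes that work with the mitochondrial genome were also without calls, beside a background of 0.0132% DE over all 15136 tested genes. At that share no call is expected in lists of this size, so the counts of 0 DE below do not set these genes apart. The list of nuclear subunits of the respiratory complexes had 78 members, all tested, and 0 were DE by limma, edgeR or DESeq2. At an unadjusted limma p below 0.05 there was 1, beside a background of 3.55%. In tKO 40 were higher and 38 lower, beside 7523 higher and 7613 lower of all 15136 tested genes, and the median log2 fold change was 0.00. The gene with an unadjusted p below 0.05 was NDUFB9, an accessory subunit of complex I. It had 2500 and 2486 counts in dKO and 2596 and 2581 in tKO. Its log2 fold change was 0.22, with a limma p of 0.0391 before and 0.996 after adjustment. NDUFS3 stood at 0.16 and NDUFS5 at -0.14. UQCRC1, a core subunit of complex III encoded on the short arm of chromosome 3, had 4805 and 4594 counts in dKO and 4253 and 2037 in tKO, for a log2 fold change of -0.50 that rested on tKO 2.

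Of 48 factors for copying, transcribing and processing the mitochondrial genome, 47 were found and 45 tested. None was DE by limma, edgeR or DESeq2, beside a background of 0.0132% by limma. None had an unadjusted limma p below 0.05, beside a background of 3.55%. In tKO 32 were higher and 13 lower, beside 7523 and 7613 of all tested genes, and the median was 0.04. MRM2, an rRNA methyltransferase, stood at 0.25 and PDE12, which removes poly(A) from mitochondrial mRNAs, at 0.21. TK2, the mitochondrial thymidine kinase, had 192 and 179 counts in dKO and 112 and 131 in tKO for a log2 fold change of -0.44 and a limma p of 0.0638 before and 0.996 after adjustment. MTPAP, the mitochondrial poly(A) polymerase, encoded on the short arm of chromosome 10, had 1085 and 992 counts in dKO and 486 and 929 in tKO, so that its value of -0.45 rested on tKO 1, which lay low along that arm.

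Of 79 proteins of the mitochondrial ribosome, 77 were found and 76 tested. None was DE by limma, edgeR or DESeq2, beside a background of 0.0132% by limma. None had an unadjusted limma p below 0.05, beside a background of 3.55%. In tKO 58 were higher and 18 lower, beside 7523 and 7613 of all tested genes. The median was 0.06 beside 0.00 over all genes. MRPL46 stood at 0.26, MRPL2 at 0.21, MRPL17 at -0.14 and MRPS28 at -0.28. Their summed level was 5430 and 5460 CPM in dKO and 5433 and 5782 CPM in tKO, so that tKO 2 alone was high. The summed level of the nuclear respiratory subunits was 11970 to 12393 CPM, and that of the 13 mitochondrial mRNAs was 22449 to 24682 CPM.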

How the data were processed

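Paired-end poly(A) RNA-seq of 2 dKO and 2 tKO HAP1 libraries was analysed, grouped by the genotype in the labels. The deposited files hold raw read counts per gene, made by the authors with a strand-specific mRNA kit, trimming (Trim Galore 0.4.4, cutadapt 1.12), removal of rRNA reads (Bowtie 1.2) and alignment and counting of unique reads with STAR 2.5.2b against hg19 and GENCODE 19. Whether the removed rRNA included the mitochondrial one was not given in the sources used here. Each file has an unstranded count, a count in the opposite orientation and a count in the library orientation, and the last was used for levels and tests. Rows that name no gene were left out, namely unmapped, multimapping (14.3% to 14.8%), unassigned and ambiguous (2.18% to 2.21%) reads. The study describes the 2 libraries of a genotype as independent biological replicates.

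Genes above 0.5 CPM in at least 2 libraries (15136) were scaled by TMM (edgeR 4.0.16) and tested on log2 CPM with prior count 2 by limma 3.58.1 with a mean-variance trend, with Benjamini-Hochberg adjustment over all tested genes. Shares were compared with exact permutation tests. Intervals and floors cover counting error only. Positions and sequences are from GRCh37 and GENCODE 44 mapped to it, matched by gene identifier. The chromosome M record that the authors aligned to may be another one, so gene ends may differ by a few bases. Exact nuclear copies were found on the GRCh37 genome.

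Mitochondrial rRNA and mRNA genes, tested tRNA genes, the 3 most counted tRNA genes of each strand, and of each nuclear list the 2 genes with the smallest p in each direction were named, as were the 3 most counted pseudogenes. MT-TW, MT-TA, MT-TN, MT-TK, MT-TY, MT-TS2, MT-TH and MTCO1P12 were named after their values were seen. The members and lists were chosen with earlier results of these data known. The fit was tested on simulated data. Alternatives were voom, edgeR's quasi-likelihood test, DESeq2 1.42.0, other scalings, filters, prior counts and orientations, a replicate block, and leaving out each library.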

Additional observations from a re-analysis of the deposited data

How the results depend on the processing

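The count of DE mitochondrial genes was 0 under every fit with all 4 libraries and 0 to 1 when single libraries were left out. The count at an unadjusted p below 0.05 was 2, became 0 without the variance trend, 1 without a filter and 1 with unstranded counts, and was 1 to 6 without single libraries, at 5 without tKO 1 and 6 without tKO 2. With unstranded counts the chromosome M share differed by -0.258 percentage points instead of -0.172. Without single libraries the median of the nuclear respiratory subunits ranged from -0.0184 to 0.0148 and their count of DE genes from 0 to 1, the median of the nuclear pseudogenes ranged from -0.252 to -0.00432, that of the mitochondrial ribosomal proteins from 0.0303 (without tKO 2) to 0.0906 (without tKO 1), and that of the mitochondrial genome factors from 0.0143 (without dKO 2) to 0.0756 (without tKO 1). With the replicate number as a block, 0 mitochondrial genes were DE and 2 had an unadjusted p below 0.05, and the block changed no other call. Whether the numbers mark a shared origin was not tested. Deviations of same-numbered libraries correlated at 0.0581 for the 15136 genes in the fit and at -0.784 for the 22 mitochondrial ones. Of 342 single-gene values under alternatives, 6 passed the adjusted p threshold, all without 1 tKO library and with the sign unchanged: those of MT-RNR1, MT-RNR2 and MT-ND6 without tKO 2, and those of MT-TI, MT-ND3 (0.34, adjusted p = 0.0392 by limma) and MT-ND5 (-0.39, adjusted p = 0.0238) without tKO 1. In the fits without a tKO library the error followed the trend over all genes rather than the measured spread of the gene itself. For MT-RNR2 the standard error was 0.129 without tKO 2, against 0.355 with all 4 libraries, although dKO 1 was 1.53 times as high as dKO 2. The adjusted p of these fits thus do not measure the spread between libraries of a genotype. The sign changed in 24 of the values that passed in neither fit, and 5 genes kept their sign throughout. Depth limits the tRNA genes most, with under 100 sense counts each.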

Other observations

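MT-CYB took 8.04% and 8.11% of the chromosome M mRNA counts in the dKO libraries and 8.81% and 8.87% in the tKO libraries, a difference of 0.766 percentage points with groups that did not overlap (two-sided exact permutation p = 0.333, the smallest that 2 against 2 libraries can give). Its own level overlapped, at 1872 and 2002 CPM in dKO and 2015 and 1991 CPM in tKO, and a share of a fixed total also moves with the other mRNAs. The 7 complex I mRNAs together took 42.7% and 38.1% in dKO and 39.8% and 42.8% in tKO. The 3 complex IV mRNAs took 40.1% and 43.95% in dKO and 41.8% and 38.2% in tKO. The complex V mRNAs took 9.18% to 10.2%.

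MT-ND5 held 37.6% and 37.3% of the chromosome M antisense counts in dKO and 38.6% and 38.04% in tKO, while the summed antisense counts ranged from 65446 to 120242. The antisense share at the 9 light-strand genes was 20.7% and 22.8% in dKO and 20.4% and 17.8% in tKO, so that both tKO libraries lay below both dKO libraries (two-sided exact permutation p = 0.333). These shares were chosen after their values were seen.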
